A study of Homo sapiens with 6 samples.

Results

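The genes described here are 33 members of the NRF2 program, the set of genes controlled by the transcription factor NRF2 (gene NFE2L2). They were chosen by gene symbol as known regulators and targets, with earlier results of these data known. All 33 were found once each among the 58735 genes of the FPKM table, and all 33 passed the filter of a mean of at least 1 FPKM over the 6 libraries. FPKM is the number of fragments per kilobase of gene length and of library size. Bulk RNA sequencing was done on total RNA of A549, a long-established line from a human lung adenocarcinoma, grown in F12K medium with 10% serum. There were 3 libraries of cells transfected with a ZBTB16 plasmid (genotype label ZBTB16 overexpression) and 3 libraries of cells transfected with the empty vector pcDNA3.1 (genotype label WT). ZBTB16 (PLZF) is a zinc finger protein known mainly as a transcriptional repressor, and the comparison asks which transcripts differ when it is supplied.

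In cells with intact control, KEAP1 holds NRF2 in the cytoplasm and hands it to a ubiquitin ligase for destruction. Oxidants and electrophiles modify KEAP1, NRF2 then enters the nucleus, pairs with small MAF proteins and binds antioxidant response elements. Its targets make glutathione and thioredoxin systems, supply NADPH, reduce carbonyls and quinones, and handle iron and haem. A549 cells are known to carry an inactivating KEAP1 mutation, so the program is known to be switched on in this line without an oxidant. Gene-level FPKM do not show the allele, and with no KEAP1 wild-type cells in the series the height of the program is a description. The genotype label WT of the empty-vector cells says nothing of KEAP1.

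ZBTB16 was at 426, 488 and 456 FPKM in the ZBTB16 libraries and at 0 in each empty-vector library, as the labels have it (limma adjusted p = 4.36e-12). The libraries held 15478010 to 17319971 reads recovered from the FPKM, and 6.02% to 6.54% of these were mitochondrial. All 6 epithelial markers reached 1 FPKM, led by the keratin KRT7, while of 8 alveolar type 2 markers 2 did (ABCA3 and LAMP3) and SFTPB and SFTPD, surfactant genes, stayed below. The extraction text in the labels names retinas, but the retinal markers CRX and RPE65 had 0 FPKM in all 6 libraries, and 1 of the 10 retinal markers reached 1 FPKM (OPN1SW, with a mean of 3.07). The 10 together summed to 2.52 to 4.34 FPKM in ZBTB16 libraries and 3.64 to 3.80 in empty-vector libraries. Summed markers of immune, fibroblast and endothelial cells were at most 0.230, 2.41 and 0.263 FPKM in ZBTB16 libraries and at most 0.156, 2.44 and 0.242 in empty-vector libraries. The labels do not say whether repeats were separate cultures, whether transfection was transient, or what share of cells took up the plasmid. The p-values rest on library-to-library spread, and that spread could be technical only. In bulk RNA, fewer cells expressing a gene and less RNA per cell cannot be told apart.

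The program's share of total FPKM overlapped between the groups. The 33 genes made up 5.74%, 5.47% and 5.56% of total FPKM in the ZBTB16 libraries, against 5.68%, 5.34% and 5.44% in the empty-vector libraries. The group means were 5.59% ± 0.137 in ZBTB16 and 5.48% ± 0.176 in empty-vector libraries (SD, n = 3 each). Counted as reads, which weights long genes more, the share was 3.71% ± 0.0607 in ZBTB16 and 3.68% ± 0.0888 in empty-vector libraries. The ferritin chains FTL and FTH1 alone held 3.04% ± 0.185 of FPKM in ZBTB16 libraries and 2.94% ± 0.177 in empty-vector libraries. The other 31 genes held 2.51%, 2.61% and 2.51% in ZBTB16 libraries and 2.54%, 2.54% and 2.55% in empty-vector libraries, a difference of the means of 0.00648% of the empty-vector share. ZBTB16 replicate 2 stood above and the other 2 ZBTB16 libraries below all empty-vector libraries. This sum joins role groups that differed in opposite directions. Aldo-keto reductases held 0.991% of FPKM in ZBTB16 libraries and 0.930% in empty-vector libraries. In the same order the NADPH genes held 0.198% and 0.207%, and the quinone, carbonyl and aldehyde enzymes 0.727% and 0.773%. Glutathione genes held 0.152% and 0.160%, regulators 0.0274% and 0.0288%, and thioredoxin genes 0.383% and 0.382%.

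**Figure D1:**
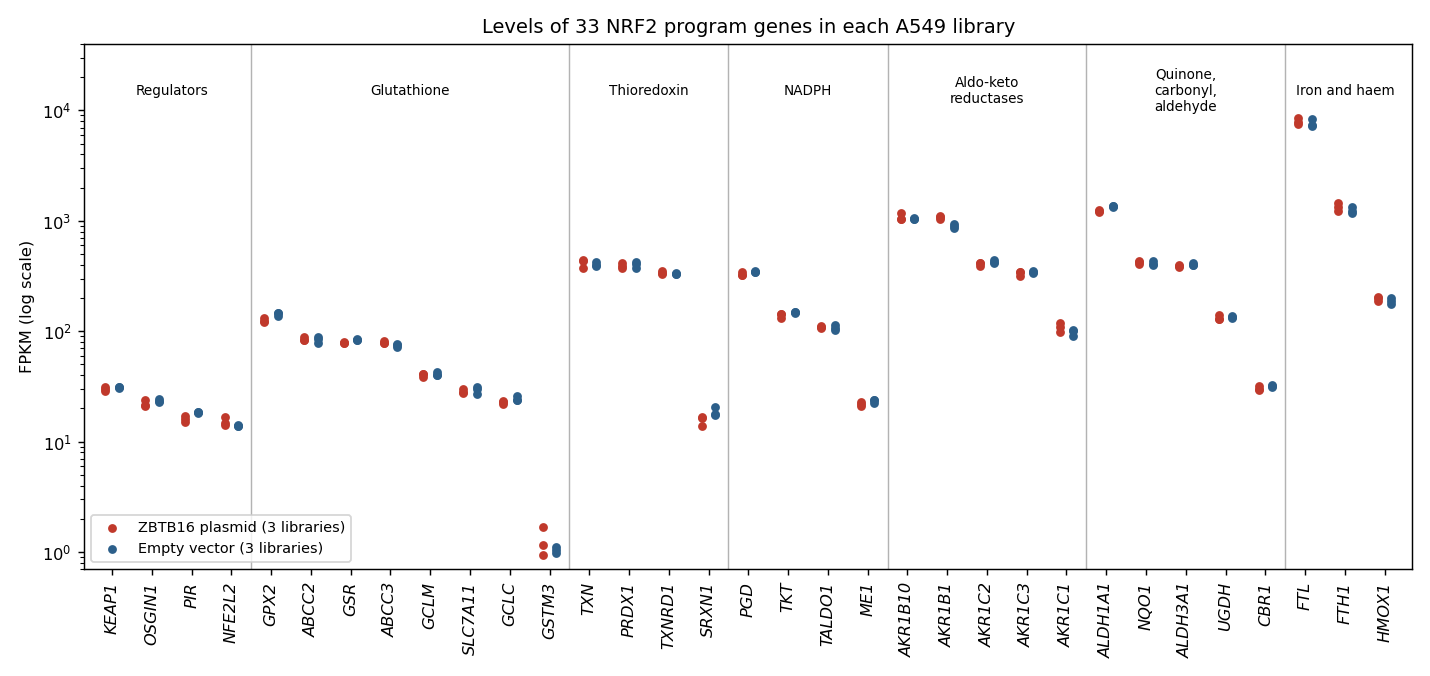
FPKM of each of the 33 genes on a log scale, grouped by role and ordered by level within a group, with 1 point per library. Points of both groups lie nearly on top of each other over a range that runs from GSTM3, with a mean of 1.15 FPKM over the 6 libraries, to FTL, with 7783.

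No member passed the test over all genes. In limma on log2(FPKM + 1), with Benjamini-Hochberg adjustment over 12499 tested genes and a threshold of 0.05, 0 of the 33 were called, beside a background of 9 genes or 0.072% called. The supplied ZBTB16 itself was among the 9. At an unadjusted p under 0.05, 1 member was higher (AKR1B1) and 6 were lower, together 21.2% of the members. Of all tested genes 10.2% reached that p, 5.08% higher and 5.17% lower. The ranges of the groups did not overlap in 12 members, 3 higher and 9 lower, together 36.4%. Of all tested genes 16.2% had no overlap, 8.12% higher and 8.1% lower. Among the 4420 tested genes with at least 10 FPKM, to which 32 of the members belong, the same 2 shares were 13.1% and 19.6%. Because the members were chosen with earlier results of these data known, their shares are a description and no test of an excess. Of the member fold changes 14 were positive and 19 negative, with a median log2 of -0.03 beside -0.003 over all tested genes. Without ZBTB16 replicate 3 the member median was 5.44e-05, with 17 positive and 16 negative. Without ZBTB16 replicate 2 it was -0.0515, with 11 positive and 22 negative. With any other library left out it was -0.0311 to -0.0177.

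The 95% intervals of all 33 log2 fold changes lay within a 1.5-fold change in either direction, and those of 27 lay within a 1.2-fold change. The lowest bound was -0.43 (SRXN1) and the highest 0.41 (GSTM3). The interval held 0 for 26 members. With 3 libraries against 3 the exact two-sided permutation test cannot go below 0.1, and it gave 0.1 for each of the 12 members whose groups lay apart.

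**Figure D2:**
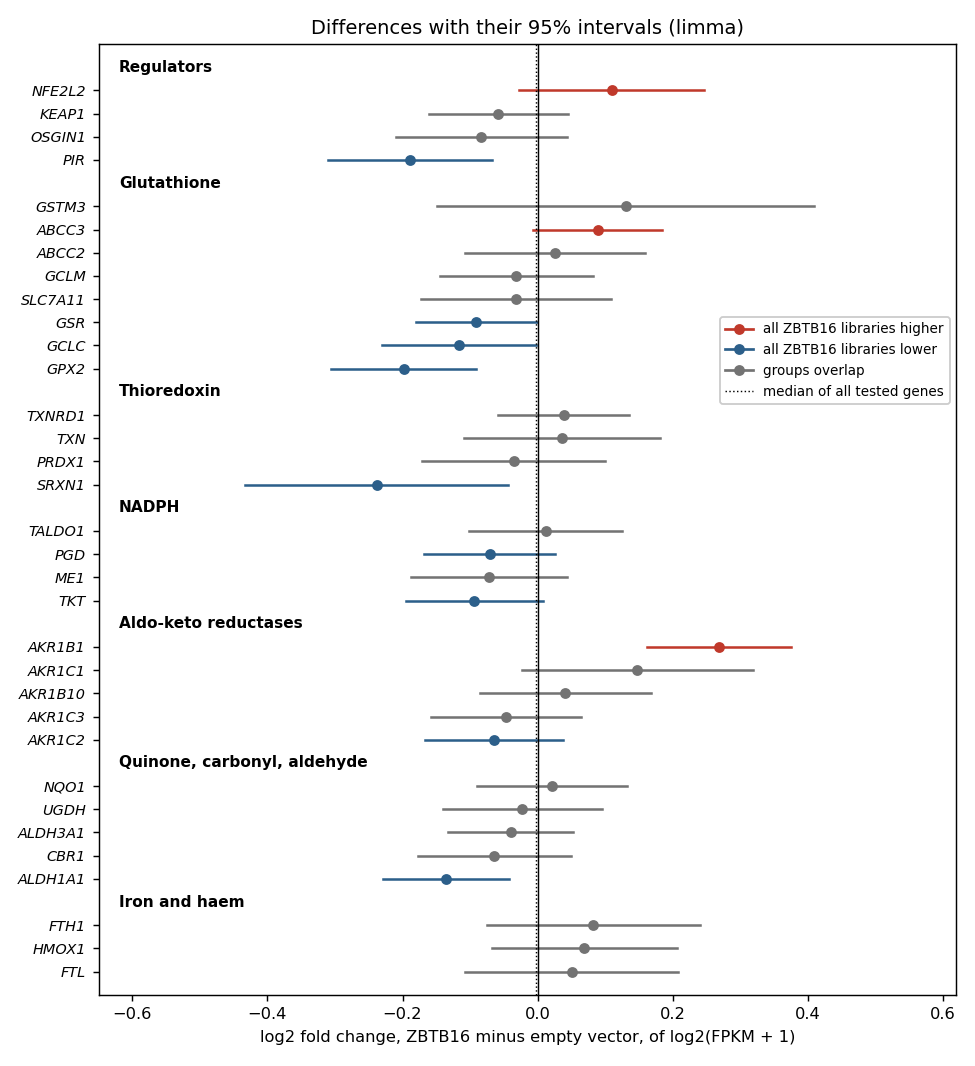
The log2 fold change of each gene, ZBTB16 minus empty vector, on the log2(FPKM + 1) scale with its 95% interval from limma, by role. Colour marks whether the 3 ZBTB16 libraries all lay above or all below the 3 empty-vector libraries, and the dotted line is the median of all tested genes. AKR1B1 at 0.27 stands farthest to the right and SRXN1 at -0.24 farthest to the left.

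The regulators, a group of NFE2L2, KEAP1, PIR and OSGIN1, were the least abundant group. NFE2L2 (chromosome 2, 177227595 to 177392697, minus strand, hg38) encodes NRF2 itself. It was at 14.2, 16.6 and 14.8 FPKM in ZBTB16 libraries and at 14.2, 13.8 and 13.96 in empty-vector libraries. The groups lay apart very narrowly, since ZBTB16 replicate 1 at 14.20 was just above empty-vector replicate 1 at 14.15, and ZBTB16 replicate 2 was the highest of the 6. The log2 fold change was 0.11 (95% interval -0.03 to 0.25, limma adjusted p = 0.607). KEAP1 (chromosome 19, 10486120 to 10503741, minus strand), the adaptor that targets NRF2 for degradation, was at 28.7, 30.1 and 30.9 FPKM in ZBTB16 libraries and at 31.2, 31.4 and 30.8 in empty-vector libraries. These overlapped, with a log2 fold change of -0.06 (interval -0.16 to 0.04, limma adjusted p = 0.760). NFE2L2 per KEAP1 within a library was 0.508 ± 0.0372 FPKM per FPKM in ZBTB16 and 0.449 ± 0.00729 in empty-vector libraries (SD, n = 3 each, exact two-sided permutation p = 0.1), a ratio chosen after the values were seen. NRF2 is known to be controlled mainly at the level of its protein, which was not measured.

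PIR, an iron-binding nuclear protein and NRF2 target, was at 16.03, 17.0 and 15.01 FPKM in ZBTB16 libraries and at 18.4, 18.3 and 18.5 in empty-vector libraries. Each ZBTB16 library was lower than each empty-vector library, and the empty-vector libraries had a coefficient of variation of 0.424%. PIR rested on 622 to 772 reads a library, so this small spread is not a measure of precision. The log2 fold change of -0.19 (interval -0.31 to -0.07) did not pass, with a limma adjusted p of 0.229. OSGIN1, an oxidative stress-induced growth inhibitor, averaged 22.2 ± 1.37 FPKM in ZBTB16 libraries and 23.5 ± 0.835 in empty-vector libraries and the groups overlapped.

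Of the promoters, those holding an antioxidant response element are of most use to a reader of this program, since NRF2 with small MAF proteins is known to bind its core. RefSeq windows of build GRCh38.p14, 250 bases before to 50 after a gene's start, matched 25 of the 33 members by symbol, in 30 windows because 5 genes have more than 1. The core was searched as TGACNNNGC on both strands. It was in 9 of the 30 member windows (30.0%) and in 4687 of 35116 windows of all genes (13.3%), and in 14.6% of the 12561 windows of protein-coding genes with at least 1 FPKM. Counted by gene it was in 8 of the 25 members (32%). The share was 19.5% of 8636 protein-coding genes with at least 1 FPKM and 16.1% of all 27305 genes. The member windows with a match belonged to KEAP1, GCLM, TXNRD1, ME1, PGD, GPX2, CBR1 and PIR, with 12 matches in all. A match is a description of letters and not evidence of binding. KEAP1, TXNRD1 and ME1 had more than 1 match, and their other cores, which have different letters, are not shown. To let the cores be compared, 1 match per gene is shown, 5′ to 3′ on the strand that reads the core forward, with the core in capitals.
GCLM, chr1:93909440-93909480, plus strand: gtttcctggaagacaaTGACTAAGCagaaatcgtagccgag
KEAP1, chr19:10502778-10502818, plus strand: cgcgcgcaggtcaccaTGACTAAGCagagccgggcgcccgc
GPX2, chr14:64942843-64942883, plus strand: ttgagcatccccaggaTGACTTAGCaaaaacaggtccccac
CBR1, chr21:36069849-36069889, minus strand: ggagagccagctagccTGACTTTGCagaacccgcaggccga
TXNRD1, chr12:104286914-104286954, minus strand: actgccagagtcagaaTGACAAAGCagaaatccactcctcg
PIR, chrX:15493284-15493323, plus strand: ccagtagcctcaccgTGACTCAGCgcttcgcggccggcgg
ME1, chr6:83431164-83431204, minus strand: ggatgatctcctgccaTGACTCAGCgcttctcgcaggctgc
PGD, chr1:10398847-10398887, minus strand: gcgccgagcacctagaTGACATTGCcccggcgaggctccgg
The cores shown for PIR and ME1 contain TGACTCA, the letters of the AP-1 site, which overlaps the element there. Those shown for GCLM and KEAP1 have the same 9 letters. None of these 8 genes was called, and their log2 fold changes ran from -0.20 for GPX2 to 0.04 for TXNRD1, the only positive one. The windows of NQO1, FTL and AKR1B1 held no match, which says only that these letters are not in these windows.

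Of the 8 glutathione genes 0 were called, 3 fold changes were positive and 5 negative, with a median log2 of -0.03. GPX2, a glutathione peroxidase, led the group (chromosome 14, 64939152 to 64942905, minus strand). It was at 124, 131 and 121 FPKM in ZBTB16 libraries and at 147, 145 and 139 in empty-vector libraries. The groups lay apart, with 125 ± 5.02 FPKM in ZBTB16 and 144 ± 4.55 in empty-vector libraries (SD, n = 3 each), with a percent difference of -12.9. On the log2 scale this was -0.20 (SE 0.047), which had a limma adjusted p of 0.175. In limma voom on the recovered reads, which called 0.832% of genes lower, GPX2 fell at an adjusted p of 0.0321.

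GCLC and GCLM are the catalytic and modifier subunits of glutamate-cysteine ligase, the rate-limiting enzyme of glutathione synthesis. GCLC was at 21.8, 23.1 and 22.6 FPKM in ZBTB16 libraries and at 23.6, 25.7 and 24.1 in empty-vector libraries, so its groups lay apart. Its log2 fold change was -0.12 with a limma adjusted p of 0.475. GCLM averaged 40.3 ± 1.58 FPKM in ZBTB16 libraries and 41.2 ± 1.64 in empty-vector libraries and its groups overlapped. SLC7A11, the cystine importer that feeds the pathway, averaged 28.7 ± 1.23 FPKM in ZBTB16 libraries and 29.4 ± 2.18 in empty-vector libraries, also with overlap. GSR, which regenerates glutathione with NADPH, was at 80.2, 78.9 and 77.7 FPKM in ZBTB16 libraries and at 85.1, 83.3 and 83.8 in empty-vector libraries. These lay apart by a small amount, a log2 fold change of -0.09 with a limma adjusted p of 0.478.

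ABCC3 and ABCC2 are exporters of glutathione conjugates. ABCC3 was at 78.4, 78.3 and 81.3 FPKM in ZBTB16 libraries and at 72.4, 76.0 and 75.1 in empty-vector libraries, all higher, with a log2 fold change of 0.09 and a limma adjusted p of 0.531. ABCC2 averaged 85.4 ± 3.13 FPKM in ZBTB16 libraries and 84.0 ± 5.87 in empty-vector libraries and overlapped. GSTM3, a mu-class glutathione transferase, was the lowest member, at 1.68, 0.948 and 1.15 FPKM in ZBTB16 libraries and 1.120, 1.03 and 0.986 in empty-vector libraries, from 77 to 123 reads. Its value in ZBTB16 replicate 1 stood apart from the other 5.

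Thioredoxin genes were abundant apart from SRXN1, whose level is uncertain. TXN, the thioredoxin protein, was at 439, 429 and 378 FPKM in ZBTB16 libraries and at 423, 393 and 397 in empty-vector libraries. TXNRD1, the selenoprotein that reduces it, averaged 341 ± 11.4 FPKM in ZBTB16 libraries and 332 ± 4.68 in empty-vector libraries, and the peroxidase PRDX1 averaged 391.9 ± 21.1 FPKM in ZBTB16 libraries and 402 ± 24.3. in empty-vector libraries For these 3 the groups overlapped and the log2 fold changes were between -0.04 and 0.04. SRXN1, sulfiredoxin, which repairs over-oxidised peroxiredoxins, was at 16.9, 13.9 and 16.4 FPKM in ZBTB16 libraries and at 20.7, 17.9 and 17.5 in empty-vector libraries. It had the lowest fold change of the 33, at -0.24 (SE 0.085, interval -0.43 to -0.04), and a limma adjusted p of 0.371. A second gene annotation, AL121758.1, covers 85.0% of the SRXN1 exons on the same strand and had at most 0.286 FPKM, so reads shared between them cannot be told apart. How such reads were counted is not known, and the SRXN1 level may be too low if they were left out.

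NADPH genes supply the reducing power for both systems. PGD, of the oxidative pentose phosphate branch, was at 343, 321 and 326 FPKM in ZBTB16 libraries and at 351, 344 and 345 in empty-vector libraries. Its groups lay apart narrowly, with ZBTB16 replicate 1 just under empty-vector replicate 2. TKT, a transketolase of the non-oxidative branch, was at 142, 132 and 142 FPKM in ZBTB16 libraries and at 149.5, 146 and 148 in empty-vector libraries, also apart. The log2 fold changes of -0.07 for PGD and -0.09 for TKT had limma adjusted p of 0.661 and 0.533. ME1, malic enzyme, was at 23.0, 22.1 and 21.2 FPKM in ZBTB16 libraries and at 23.9, 23.7 and 22.3 in empty-vector libraries. TALDO1, transaldolase, averaged 109 ± 2.74 FPKM in ZBTB16 libraries and 108 ± 5.65 in empty-vector libraries, and both ME1 and TALDO1 overlapped between the groups. The 4 members held 0.198% ± 0.00582 of FPKM in ZBTB16 libraries and 0.207% ± 0.00115 in empty-vector libraries, with no overlap.

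Aldo-keto reductases reduce aldehydes and ketones with NADPH, and the group held the member with the highest fold change. AKR1B1, aldose reductase (chromosome 7, 134442350 to 134459284, minus strand), was at 1042, 1101 and 1081 FPKM in ZBTB16 libraries and at 929, 859 and 889 in empty-vector libraries. Every ZBTB16 library stood above every empty-vector library, with means of 1075 ± 29.6 FPKM in ZBTB16 and 892 ± 35.5 in empty-vector libraries (SD, n = 3 each), a difference of 20.4%. The log2 fold change was 0.27 (SE 0.047, interval 0.16 to 0.38) and the limma adjusted p 0.0982, which did not pass. It passed among protein-coding genes alone (limma adjusted p = 0.0252, where 0.518% of genes were called higher) and at a mean of at least 5 FPKM (0.0341, where 0.622% were). It also passed in limma voom on recovered reads (0.000516, where 0.816% were). With 1 library left out the limma adjusted p was 0.0811 to 0.281, and with no filter on low genes it was 0.434.

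AKR1B10, a retinal and lipid aldehyde reductase that neighbours AKR1B1 (chromosome 7, 134527592 to 134541408, plus strand), was the most abundant of the group per merged exon length. It was at 1041, 1174 and 1035 FPKM in ZBTB16 libraries and at 1059.7, 1048 and 1046 in empty-vector libraries. ZBTB16 replicate 2 stood alone above the other 5, and the log2 fold change was 0.04 (interval -0.09 to 0.17, limma adjusted p = 0.878). AKR1B1 per AKR1B10 was 1.00, 0.937 and 1.04 FPKM per FPKM in ZBTB16 libraries and 0.877, 0.819 and 0.850 in empty-vector libraries, with no overlap and an exact two-sided permutation p of 0.1. This ratio was chosen after the values were seen.

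The AKR1C genes, steroid and prostaglandin reductases, lie side by side on chromosome 10 between 4963253 and 5107686. AKR1C2 was at 414, 418 and 393 FPKM in ZBTB16 libraries and at 439.99, 419 and 422 in empty-vector libraries, lower throughout by a narrow margin, with a log2 fold change of -0.06 (limma adjusted p = 0.723). AKR1C1 was at 109, 118 and 99.0 FPKM in ZBTB16 libraries and at 103, 89.9 and 101 in empty-vector libraries, with overlap and a log2 fold change of 0.15 (limma adjusted p = 0.571). AKR1C3 averaged 334 ± 16.8 FPKM in ZBTB16 libraries and 345 ± 6.64 in empty-vector libraries. AKR1C1 and AKR1C2 share stretches of sequence, and reads from these may have been split between them, so their opposite signs are uncertain. Of the 50-base stretches in the annotated transcripts, 28.3% of those of AKR1C1 occur in AKR1C2 and 38.1% of those of AKR1C2 occur in AKR1C1. For AKR1B10 and AKR1B15 the share is 9.69% of AKR1B10, and AKR1C3 shares 3.61% with AKR1C2.

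As a group the 5 aldo-keto reductases held 0.962%, 1.03% and 0.976% of FPKM in ZBTB16 libraries and 0.934%, 0.920% and 0.935% in empty-vector libraries, with no overlap. Without AKR1B1 the other 4 held 0.637% ± 0.0321 in ZBTB16 libraries and 0.635% ± 0.00288 in empty-vector libraries, which overlapped.

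Of the 5 quinone, carbonyl and aldehyde enzymes 0 were called, with 1 positive and 4 negative fold changes. ALDH1A1, which oxidises retinal and other aldehydes (chromosome 9, 72900662 to 73080442, minus strand), ranked 2 among the members by its mean FPKM over all 6 libraries, with FTH1 next to it at 1295 FPKM. In ZBTB16 libraries alone FTH1, at 1333, was above it. ALDH1A1 was at 1238, 1265 and 1202 FPKM in ZBTB16 libraries and at 1367, 1347 and 1356 in empty-vector libraries. The groups lay apart, at 1235 ± 31.4 FPKM in ZBTB16 and 1357 ± 10.4 in empty-vector libraries, with a percent difference of -8.98. The log2 fold change was -0.14 (SE 0.041, interval -0.23 to -0.04, limma adjusted p = 0.260). NQO1, the quinone reductase most used as a readout of NRF2 (chromosome 16, 69706996 to 69726951, minus strand), was at 422, 432 and 404 FPKM in ZBTB16 libraries and at 433, 405 and 400.4 in empty-vector libraries. Its groups overlapped, with a log2 fold change of 0.02 (interval -0.09 to 0.13, limma adjusted p = 0.934).

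CBR1, a carbonyl reductase, was the lowest of this group, at 30.1, 32.1 and 29.05 FPKM in ZBTB16 libraries and 32.5, 31.8 and 31.1 in empty-vector libraries. ALDH3A1, a further aldehyde dehydrogenase, averaged 389.8 ± 4.36 FPKM in ZBTB16 libraries and 401 ± 10.1 in empty-vector libraries, and UGDH, which makes UDP-glucuronate, averaged 133 ± 7.67 FPKM in ZBTB16 libraries and 135 ± 3.53. in empty-vector libraries All 3 overlapped between the groups. The 5 genes together held 0.727% ± 0.0142 of FPKM in ZBTB16 libraries and 0.773% ± 0.00251 in empty-vector libraries, with no overlap. Without ALDH1A1 the other 4 held 0.320% ± 0.00708 in ZBTB16 and 0.324% ± 0.00294 in empty-vector libraries, which overlapped.

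**Figure D3:**
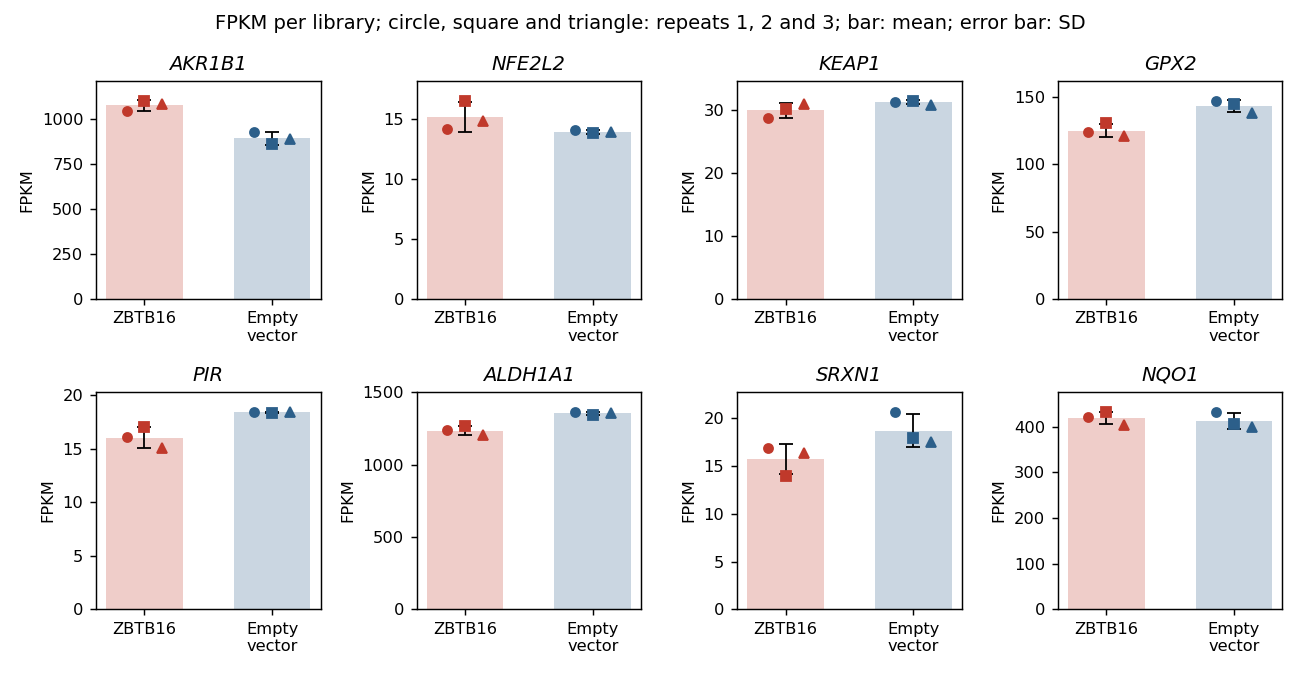
FPKM of 8 members in each library, with bars for the mean and error bars for the SD of 3 libraries. AKR1B1 is higher in every ZBTB16 library, GPX2, PIR, ALDH1A1 and SRXN1 are lower in every ZBTB16 library, NFE2L2 is separated only narrowly, and KEAP1 and NQO1 overlap.

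Iron and haem genes held 3.11% ± 0.188 of FPKM in ZBTB16 libraries and 3.005% ± 0.180 in empty-vector libraries, more than the other role groups. By reads they held 1.01% and the aldo-keto reductases 1.09% in ZBTB16 libraries, and 0.978% and 1.03% in empty-vector libraries. FTL, the light chain of ferritin, which stores iron, ranked 4 among all genes (chromosome 19, 48965301 to 48966878, plus strand). It was at 8466, 7478 and 7803 FPKM in ZBTB16 libraries and at 8348, 7189.6 and 7413 in empty-vector libraries. Replicate 1 was the highest library in both groups. The same held for the heavy chain FTH1, at 1441, 1232 and 1325 FPKM in ZBTB16 libraries and 1348, 1187 and 1238 in empty-vector libraries. It also held for HMOX1, the enzyme that breaks haem down and releases its iron, at 206, 186 and 199 FPKM in ZBTB16 libraries and 199.9, 175 and 188 in empty-vector libraries.

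For all 3 the groups overlapped, with log2 fold changes of 0.05, 0.08 and 0.07 and limma adjusted p of 0.879, 0.785 and 0.798 for FTL, FTH1 and HMOX1. FTL per FTH1 was 5.94 ± 0.108 FPKM per FPKM in ZBTB16 libraries and 6.08 ± 0.105 in empty-vector libraries (exact two-sided permutation p = 0.3). The summed FPKM of all genes was also highest in replicate 1 of both groups, at 306840 in ZBTB16 and 308761 in empty vector, beside 299389 to 304764 in the other 4 libraries, and the part of this in the ferritin values was not tested. Exons of BEST1 on the opposite strand cover 62.4% of FTH1, and BEST1 had at most 0.290 FPKM. Of the 50-base stretches of FTL 18.3% and of FTH1 19.9% occur in transcripts of other genes, mainly their pseudogenes.

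**Figure D4:**
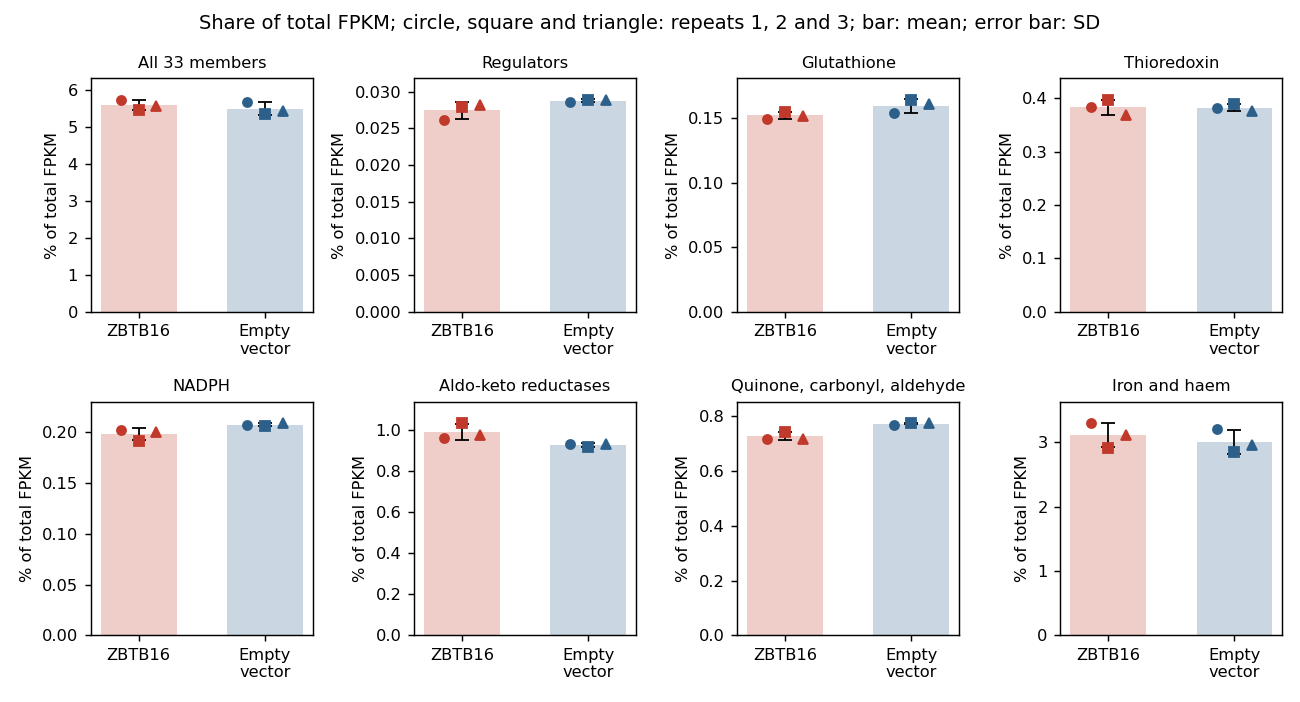
Percent of total FPKM held by all 33 members and by each role group, per library, with bars for the mean and error bars for the SD of 3 libraries. The share of aldo-keto reductases is higher in every ZBTB16 library. The shares of quinone, carbonyl and aldehyde enzymes, NADPH genes and regulators are lower in every ZBTB16 library. Those of the total, glutathione, thioredoxin and iron groups overlap. As shares of reads the regulators overlap as well, with a percent difference of -2.94 in place of -4.68. Within the regulator group PIR was lower and NFE2L2 higher in every ZBTB16 library, while KEAP1 and OSGIN1 overlapped.

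The order of levels depends on the gene length used. The deposited length is the sum of all annotated exons of a gene, which is longer than its main transcript where many isoforms are annotated. For TKT it is 9507 bases, 3.16 times its APPRIS principal transcript of 3010, and for FTL it is 878 bases in both. Per kilobase of principal transcript, with the same scaling by reads, AKR1B1 stood at 2794 in ZBTB16 libraries and 2331 in empty-vector libraries, and over all 6 libraries it moved to rank 2 among the 33 from rank 5 by deposited FPKM. By the same mean over 6 libraries NQO1 moved to rank 13 from rank 7, and AKR1C3 to rank 6 from rank 11, where PGD and TXNRD1 lay within 3 FPKM of it. AKR1C1 kept rank 19 and FTL rank 1. Ratios of FPKM between the groups do not depend on this length. The log2 fold changes given here depend on it slightly, since 1 was added to each FPKM, and more so for low genes.

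**Figure D5:**
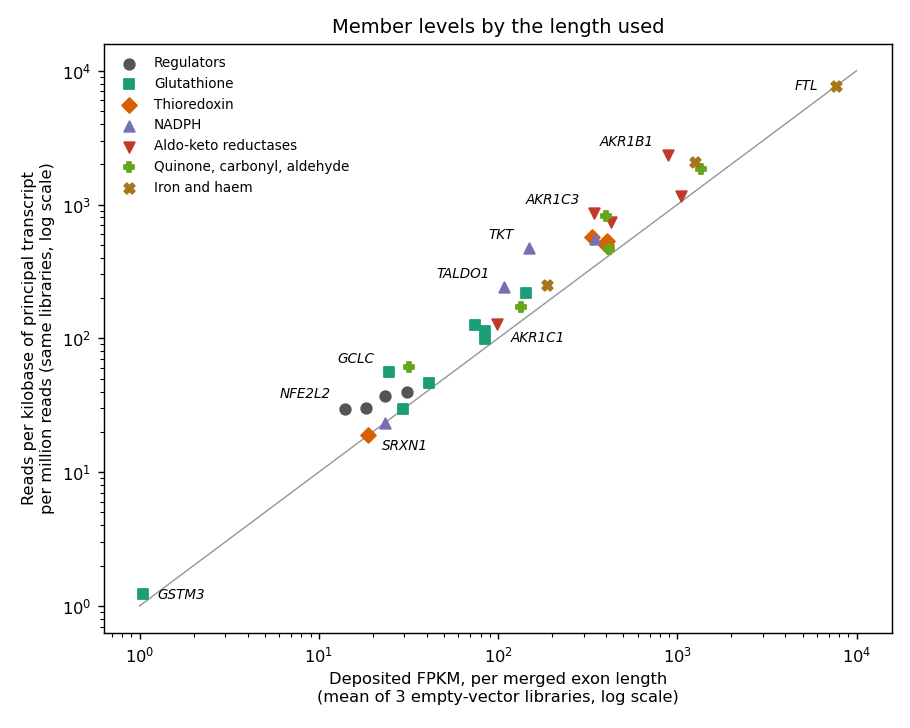
Level of each member in empty-vector libraries by the deposited merged exon length (horizontal axis) and by the length of the APPRIS principal transcript (vertical axis), both on log scales, with the line of equality. Genes far above the line, such as TKT, AKR1B1 and AKR1C3, have annotated exons much longer than their principal transcript.

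A further list of 70 genes of the pathway, with regulators, glutathione, thioredoxin, NADPH, reductase and iron genes outside the 33, was read from the same fit. Of these 57 were tested and 0 were called. At an unadjusted p under 0.05, 7 were higher and 3 lower, which is 17.5% beside 10.2% of all tested genes. This list too was chosen with earlier results known, so its share is a description. Of the fold changes 32 were positive and 25 negative, with a median log2 of 0.01. The smallest p was that of ALDH1A3, a retinal dehydrogenase related to ALDH1A1, at 5.91, 7.17 and 6.66 FPKM in ZBTB16 libraries and 5.57, 5.37 and 5.39 in empty-vector libraries. It was higher in every ZBTB16 library, with a log2 fold change of 0.23 and a limma adjusted p of 0.252, and 27.5% of its exons are covered on the opposite strand by another gene. SQSTM1, encoding the p62 receptor that competes with NRF2 for KEAP1, averaged 209 FPKM in ZBTB16 libraries and 188 in empty-vector libraries with overlap. Of the small MAF partners, MAFF averaged 7.81 FPKM in ZBTB16 libraries and 6.70 in empty-vector libraries, higher in every ZBTB16 library but not called (limma adjusted p = 0.292). MAFG and MAFK were more abundant and overlapped, with log2 fold changes of 0.002 and -0.06. These 4 names were chosen after their values were seen.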

How the data were processed

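Bulk RNA-seq of 6 A549 libraries was used, grouped by the sample titles. The authors deposited FPKM per gene with gene lengths and positions, per the file headers. HISAT2 2.0.5 and build hg38 are named in the submitters' processing notes. For the read counter, strand setting and filters, the sources used here give nothing. FPKM was multiplied by length and divided by the smallest nonzero product in the library, which was assumed to stand for a single read. This gave whole numbers of reads for 100% of values (tolerance 0.01). Positions of 99.9% of genes equal GENCODE 29, the source of exon overlap, APPRIS principal transcripts and shared 50-base stretches. Repeats were distinct libraries, since their reads differed beyond sampling noise (chi-square per gene 2.28 to 5.19 on average).

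Genes with a mean of at least 1 FPKM entered limma 3.58.1 (R 4.3.3) as log2(FPKM + 1), with a trended robust prior, two-sided and without covariates. Fold changes on this scale understate changes of low genes. Percent differences and ± values are of FPKM. The fit was tested on simulated reads. The members and lists were chosen with earlier results of these data known. Per-library values are given for NFE2L2, KEAP1, NQO1, HMOX1, the highest and lowest member of each role group and the 6 members of smallest p. GSR, ABCC3, TKT, AKR1C2 and FTH1 were added after their values were seen. Of the other list, the gene of smallest p is named by rule, and 1 further gene of that rule is not reported here. Sequences are RefSeq's. Alternatives were a pseudocount of 0.1, no filter, at least 5 FPKM, protein-coding genes alone, median-ratio or equal-sum scaling, a constant prior, the repeat number as a block, leaving out each library and, chosen after seeing the data, limma voom on recovered reads and principal transcript lengths. Plots used matplotlib 3.10.9.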

Additional observations from a re-analysis of the deposited data

How the results depend on the processing

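Of 494 recomputed member fold changes, 475 kept their direction and their side of the threshold, 15 reversed and 4 passed the threshold. The 4 were AKR1B1 in 3 settings and GPX2 in 1. The member count higher, and that of the aldo-keto reductases, was 1 (AKR1B1) at a mean of at least 5 FPKM, among protein-coding genes alone and with limma voom. The member count lower, and that of the glutathione genes, was 1 (GPX2) with limma voom. Over all genes, 8 were called higher, ZBTB16 itself among them, and 1 lower. The counts were 44 and 31 at a mean of at least 5 FPKM, 56 and 33 among protein-coding genes, 102 and 104 with limma voom, 1 and 0 with no filter, and 1 and 0 with a constant prior. The lower count was 2 with a pseudocount of 0.1 and 2 with equal-sum scaling. Leaving out 1 library gave 1 to 6 higher and 0 to 2 lower. The cause of these differences was not tested.

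The 15 reversals all came from leaving out 1 library, in 9 members with small differences. The log2 fold change then ran from -0.000336 to 0.0567 for NQO1, -0.0512 to 0.000653 for GCLM, -0.0051 to 0.104 for TXN and -0.0908 to 0.0103 for SLC7A11. It ran from -0.0236 to 0.0506 for TALDO1, -0.0311 to 0.0661 for ABCC2, -0.0694 to 0.00207 for UGDH, -0.0184 to 0.0728 for AKR1B10 and -0.0841 to 0.00135 for PRDX1. The glutathione share differed by -1.19% as a share of reads and by -4.75% as a share of FPKM.

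Deviations of same-numbered libraries correlated at 0.0672, 0.0465 and -0.0435 over all tested genes and at 0.529, 0.350 and -0.0538 over the members. Those of differently numbered libraries ran from -0.0840 to 0.0406 over all tested genes and from -0.481 to 0.322 over the members. Not every same-numbered pair was above 0.1 in either set, so the numbers were not taken as pairs. With the replicate block 12 genes were called higher and 3 lower, and 0 members. The planned edgeR test on recovered reads was not run, and GSTM3 has no value at a mean of at least 5 FPKM. With 3 libraries a group, small differences in single genes may have been missed. The 95% intervals of the member log2 fold changes reached -0.43 for SRXN1 and 0.41 for GSTM3, and those of 27 members lay within a 1.2-fold change. GSTM3 rested on 77 to 123 reads a library.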
